A study of Mus musculus with 884 samples.

Results

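The Fgf5 replication domain is a stretch of mouse chromosome 5, chr5:98320001-99440000 (mm9), in which single cells were called replicated or not yet replicated in 14 bins of 80 kb, out of 30890 bins over autosomes 1 to 19. It was chosen by the share of replicated cells: its share of replicated mid-S-phase cells was higher in epiblast stem cells (EpiSCs) than in naive embryonic stem cells (day 0, d0), so that contrast is given below as a description only. The Fgf5 bin, chr5:98640001-98720000, is the bin that the selection places the gene in, and 12 whole bins (960 kb) within 1 Mb were read on each side as flanks. At the left end, the outermost bin inside the domain was replicated in 42.3% of EpiSCs and 6.78% of d0 cells, a difference of 35.5 points, and the next bin outside in 34.6% and 8.47%, a difference of 26.1 points. At the right end the last bin inside had 50% in EpiSCs and 17.2% on d0, and the next bin outside 42.3% and 22%, differences of 32.8 and 20.3 points.

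Fgf5 encodes fibroblast growth factor 5, a secreted ligand of FGF receptors that is a standard marker of the postimplantation epiblast: it is silent in naive stem cells and switched on as they leave that state. Mammalian genomes are copied in domains that fire early or late in S phase, and a domain's place in that order can change when cells differentiate. Early replication often goes with open, transcribed chromatin, but transcription and chromatin were not measured in these cells. In the RefSeq gene order the protein-coding neighbours are Prdm8, which encodes a PR-domain protein known from the nervous system, and Cfap299, a gene named for cilia and flagella. A long noncoding RNA, A730035I17Rik, lies between Prdm8 and Fgf5, the pseudogene Gm8048 lies beyond Prdm8, and Mir703 and the long noncoding RNA Gm34475 lie beyond Cfap299. That table follows GRCm38.p6 and the calls follow mm9, so it was used for names and order only, and no gene was placed on a bin from it.

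The Fgf5 promoter is shown because the bin that holds the gene was tied for the highest share of the domain in most groups. In none of them was it the highest alone, so the shares do not single out this bin. It is the RefSeq sequence of GRCm38.p6, chr5:98253934-98254233 on the + strand, with 250 bases before and 50 after the annotated start; these coordinates cannot be set against the mm9 positions of the bins. CG dinucleotides are in capitals.
Fgf5 promoter: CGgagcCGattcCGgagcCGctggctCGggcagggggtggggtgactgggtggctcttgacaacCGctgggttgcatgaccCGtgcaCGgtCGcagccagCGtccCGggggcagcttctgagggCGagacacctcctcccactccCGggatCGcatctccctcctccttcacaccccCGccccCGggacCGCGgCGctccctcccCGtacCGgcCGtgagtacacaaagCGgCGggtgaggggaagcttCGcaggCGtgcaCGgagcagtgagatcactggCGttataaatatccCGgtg
It holds 29 CG dinucleotides and 68.3% G and C, and 12.9% of 32851 mouse promoter sequences of the same length hold at least as many, against a median of 7. This describes the sequence only, since neither methylation nor binding was measured.

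Single-cell Repli-seq sorts cells by DNA content, amplifies and sequences each genome, and reads replication from the copy number along the chromosomes. The series holds 884 cells, of which 805 S-phase and 72 G1 cells could be placed in a group and 7 G1 cells could not. The groups were EpiSCs (female, strain C57BL6, grown with Activin and FGF), d0 (CBMS1 embryonic stem cells, female, a CBA/MsM hybrid, in 2i/LIF), d2 (CBMS1 cells brought to epiblast-like cells), and d3, d4, d5, d6 and d7 (the same line in floating aggregates in GK15 medium without added factors, which yields neurectoderm by d7). EpiSCs and CBMS1 cells differ in strain, line and medium as well as in state, and these cannot be told apart. No label names separate cultures, so every group counts as 1 sample: no test was run, cells were not treated as replicates, and the 95% intervals (Clopper-Pearson, exact) reflect the counting of cells alone.

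A cell's replication score, which gives its place in S phase, is the share of called bins already replicated, in percent. Shares were taken over the 293 S-phase cells labelled with scores of 40 to 70%, called window cells here: 26 EpiSCs, 59 on d0, 35 on d2, 13 on d3, 18 on d4, 20 on d5, 21 on d6 and, on d7, 66 cells of the present and 35 of a previous series. Their mean scores lay between 52.3% (d2) and 57.1% (EpiSCs), with SDs over cells of 7.90 to 10.1. Each window cell had at least 26813 bins called, and 292 of 293 were called in all 14 domain bins. On d0, 50 of 59 came from the previous series as well. In 7 window cells (3 on d0, 1 on d4, 3 on d7) the calls fitted the mean profile poorly (an area under the curve below 0.8 when ranking bins), and the differences in domain or Fgf5 bin share, and in flank means, are given below with and without these cells. In G1 cells 0 of 72 had the domain replicated, which allows a share of up to 4.17%, and 6 of 1005 domain calls (0.597%) were replicated. A limit of this kind for a count of 0 is 3 cells of the total, here and below. It is lower than the upper end of the exact interval.

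The Fgf5 bin was replicated in nearly all EpiSCs in mid-S phase and in few naive cells, and the days of differentiation lay between. It was replicated in 25 of 26 EpiSCs (96.2%, 80.4 to 99.9%), 8 of 58 cells on d0 (13.8%, 6.15 to 25.4%), 21 of 35 on d2 (60%, 42.1 to 76.1%) and 9 of 13 on d3 (69.2%, 38.6 to 90.9%). On d4 it was replicated in 15 of 18 cells (83.3%, 58.6 to 96.4%) and on d5 in 18 of 20 (90%, 68.3 to 98.8%). The share was 8 of 21 on d6 (38.1%, 18.1 to 61.6%) and on d7 70 cells had the bin replicated and 31 did not (69.3%, 59.3 to 78.1%). In descending order the groups ran EpiSC, d5, d4, d7, d3, d2, d6 and d0, and the intervals of every pair of neighbours in this order overlapped. The d0 interval lay below that of every group but d6, and the d6 interval lay below those of EpiSCs and d5. In these samples d5 was next to EpiSCs in level and d6 next to d0; the intervals count cells of 1 sample per group and do not cover differences between cultures or controls.

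**Figure D1:**
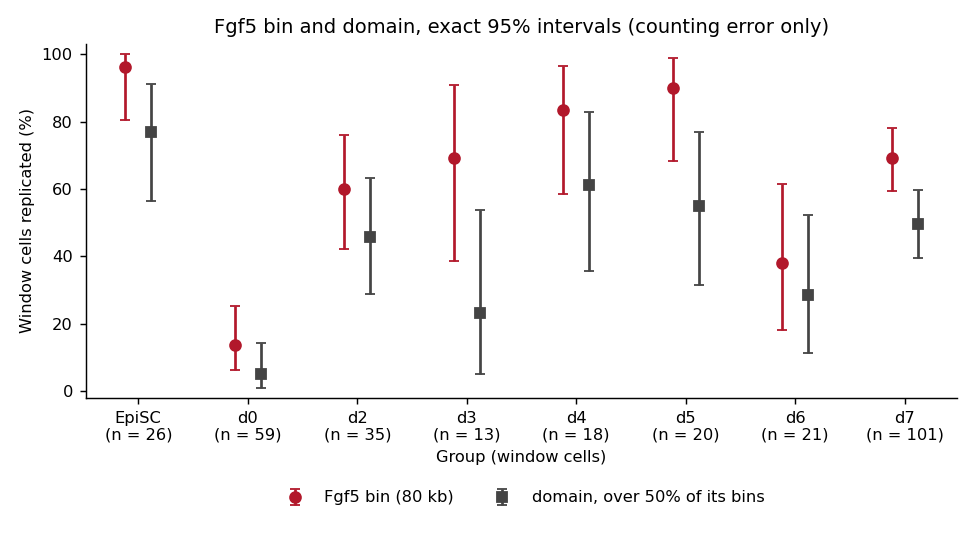
Percentage of window cells (replication score 40 to 70%) replicated at the Fgf5 bin (circles) and over more than 50% of the domain's called bins (squares), by group; bars are exact 95% intervals for counting error, 1 sample per group. The Fgf5 bin lies above the domain in all 8 groups, EpiSCs are highest in both, d0 is lowest in both, and d6 is below d5 and d7 in both.

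Counting a cell as replicated over the domain when more than 50% of its called domain bins were, fewer cells qualified in every group. The domain was replicated in 20 of 26 EpiSCs (76.9%, 56.4 to 91%), 3 of 59 cells on d0 (5.08%, 1.06 to 14.1%), 16 of 35 on d2 (45.7%, 28.8 to 63.4%) and 3 of 13 on d3 (23.1%, 5.04 to 53.8%). It was replicated in 11 of 18 cells on d4 (61.1%, 35.7 to 82.7%), 11 of 20 on d5 (55%, 31.5 to 76.9%), 6 of 21 on d6 (28.6%, 11.3 to 52.2%) and 50 cells, against 51 without, on d7 (49.5%, 39.4 to 59.6%). The gap between the Fgf5 bin and the domain was widest on d3, where 9 of 13 cells had the bin and 3 of 13 the domain. With 13 cells, that is also the group with the widest interval for the Fgf5 bin.

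Set among all bins of the same group, the Fgf5 bin had a percentile of 74.8 in EpiSCs and 24.8 on d0. Its percentile was 53 on d2, 56 on d3, 63.9 on d4, 65.1 on d5, 39.8 on d6 and 52.5 on d7. By rank d7 stood behind d3 and d2, and otherwise the order was that of the shares, with d6 the lowest after d0. The domain mean had percentiles of 54.1 in EpiSCs, 19.5 on d0 and 44.8 on d7, so the domain as a whole was at most near the middle of the genome's order.

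The domain did not replicate as a block. In most groups its share formed a peak near the Fgf5 bin, with later-replicating bins on either side. The Fgf5 bin was tied for the highest of the 14 bins in 6 of 8 groups (EpiSC, d2, d3, d4, d6, d7), and was never the highest alone. The tie was with the bin 80 kb left in EpiSCs and on d7, and with the bin 80 kb right on d2. On d3, d4 and d6 it was with several bins between 240 kb left and 160 kb right. On d5 the highest was the next bin to the right, at 95% against 90% in the Fgf5 bin. On d0 the highest was the last domain bin, 720 kb to the right, at 17.2%. Over the domain the share ranged from 42.3 to 96.2% in EpiSCs, 5.17 to 17.2% on d0, 5.71 to 60% on d2, 7.69 to 69.2% on d3, 16.7 to 83.3% on d4, 30 to 95% on d5, 23.8 to 38.1% on d6 and 34.7 to 69.3% on d7. The profile was thus steep in EpiSCs and from d2 to d5, with spans of 53.8 to 66.7 points, and nearly flat on d0 (12.1 points) and d6 (14.3 points). More than 50% of cells had replicated 12 of 14 bins in EpiSCs, 0 on d0, 5 on d2, 6 on d3, 7 on d4, 8 on d5, 0 on d6 and 7 on d7.

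The drop on the right side of the peak was abrupt on d3 and d5. On d5 the bin 240 kb right of the Fgf5 bin was replicated in 90% of cells and the one at 320 kb in 35%. On d3 the bin at 160 kb had 69.2% and the one at 240 kb 23.1%. In EpiSCs, by contrast, the share passed these positions at 84.6% (240 kb) and 76.9% (320 kb) and was still 69.2% at 640 kb. Over the 5 bins from 160 kb left to 160 kb right the shares were 88.5 to 96.2% in EpiSCs and 70 to 95% on d5. To the right of these the EpiSC peak reached farther.

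**Figure D2:**
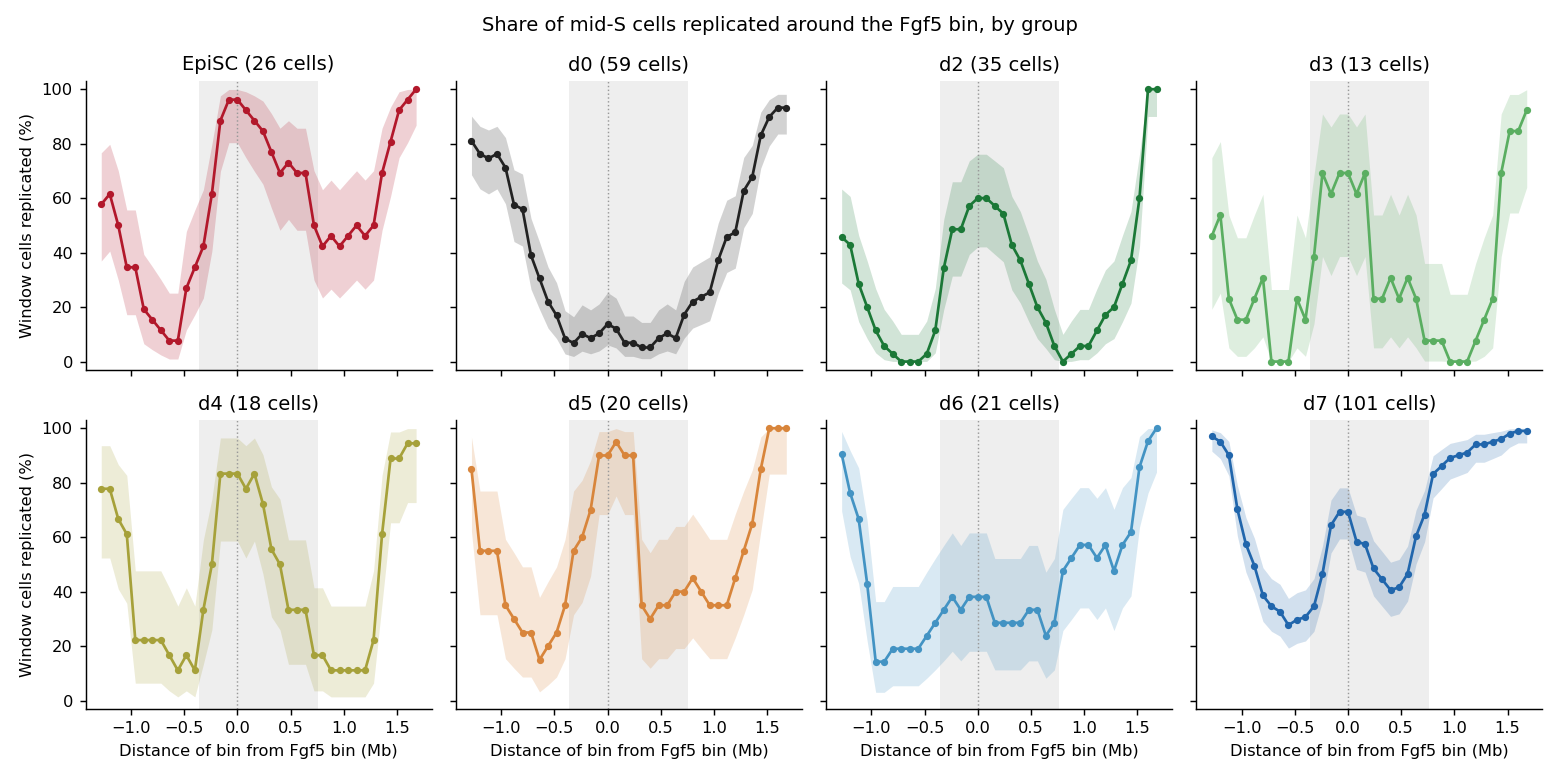
Percentage of window cells replicated in each 80 kb bin (points) against distance from the Fgf5 bin in Mb, 1 panel per group; coloured bands are exact 95% intervals for counting error, the grey area is the domain and the dotted line the Fgf5 bin. A peak at or next to the Fgf5 bin stands between valleys in EpiSCs and from d2 to d5. On d0 the whole domain is low, at 5.17 to 17.2%, with 13.8% at the Fgf5 bin, and no clear peak stands out. The peak is low on d6, and on d7 runs into a right flank replicated in 83.2 to 99% of cells.

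The flanks followed another course over the groups. The left flank mean was 30.1% in EpiSCs, 50.8% on d0, 14.3% on d2, 20.5% on d3, 35.6% on d4, 38.3% on d5, 36.1% on d6 and 54.5% on d7. The right flank mean was 63.5% in EpiSCs, 57.6% on d0, 32.4% on d2, 32.7% on d3, 43.5% on d4, 61.7% on d5, 64.3% on d6 and 92.9% on d7. On d0, then, both flanks replicated ahead of the domain (mean 9.34%), whereas on d2 the domain mean (40.6%) was above both. On d2 the 3 bins from 720 to 560 kb left and the bin 800 kb right of the Fgf5 bin were replicated in 0 of 35 cells, which allows a share of up to 8.57%. These same 4 bins were replicated in 39, 30.5, 22 and 22% of d0 cells.

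The d0 cells set against d2 here are those whose low shares entered the choice of the domain, so an excess of higher bins over the background is partly built in. In d2 cells against d0 cells, 9 of 14 domain bins were higher by 0.3 or more in share, where 1.54% of 29691 bins tested were. In the flanks, 9 of 12 left bins and 6 of 12 right bins were lower by as much, against 6.98% of all bins tested. The domain mean differed by 31.3 points and the Fgf5 bin by 46.2 points, a difference that 0.327% of all bins reached. Without the cells off the mean profile the Fgf5 bin differed by 45.7 points (24.2 to 63.7). All d2 cells were of the present series, and with the 9 present-series cells of d0 alone the Fgf5 bin differed by 22.5 points (-19.5 to 55.7), the domain mean by 12.6 points, and 2 of 14 domain bins were higher by 0.3 or more. The share of cells with the domain replicated was 45.7% on d2 and 5.08% on d0, a difference of 40.6 points (21.5 to 58.7). It was 42.9 points with d0 cells matched in score, since the d2 cells had the lower mean score (52.3% against 56.3%), 40.4 points without the cells off the mean profile and 34.6 points (-6.19 to 55.3) with present-series cells alone. The left flank mean differed by -36.5 points (-29.9 matched in score, -36.6 without the cells off the mean profile, -39.2 with present-series cells alone). The right flank mean differed by -25.2 points (-18.8, -27.6 and -19.5 under the same settings). At the epiblast-like stage, higher shares at the centre thus stood beside lower shares in both flanks.

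The later days were each set against the same d0 cells, so these comparisons are not independent of one another or of the contrast that chose the domain. In d3 cells 7 of 14 domain bins were higher by 0.3 or more (background 5.06%), in d4 cells 9 (3.23%), in d5 cells 9 (4.4%), in d6 cells 0 (6.11%) and in d7 cells 13 (7.75%). The domain mean differed from d0 by 33.5 points on d3, 47 on d4, 51.7 on d5, 23 on d6 and 44.3 on d7. Flank bins lower by 0.3 or more than on d0 numbered 7 left and 5 right on d3 (background 8.79%), 3 and 3 on d4 (7.02%), 2 and 0 on d5 (6.15%), 4 and 0 on d6 (8.81%) and 0 and 0 on d7 (7.71%). Fewer flank bins were lower than on d0 at each later day than on d2, and 0 were on d7. Against the 9 present-series cells of d0 alone, whose domain mean was 28%, present-series cells had 5 domain bins higher on d3, 8 on d4, 6 on d5, 0 on d6 and 4 on d7, and their domain means differed by 14.9, 28.4, 33.1, 4.34 and 25.3 points on these days. The counts and differences against d0 thus depended on which d0 cells were used. EpiSCs against d0, the contrast behind the choice of the domain, had all 14 bins higher (background 7.36%), a domain mean difference of 66.2 points and 4 left flank bins lower (6.34%). With present-series cells alone 11 bins were higher and the domain mean differed by 47.6 points. The share of cells with the domain replicated differed by 71.8 points there, by 71.6 without the cells off the mean profile and by 65.8 with the 9 present-series cells of d0 alone.

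On d7 the domain was higher than on d0 and its right flank was higher too. In d7 cells against d0 cells 7 of 12 right flank bins were higher by 0.3 or more (background 7.75%), and the right flank mean differed by 35.3 points (37.3 with d7 cells matched in score, 33.7 without the cells off the mean profile, 39.1 with present-series cells alone). The domain was replicated in 49.5% of d7 cells and 5.08% of d0 cells, a difference of 44.4 points (30.8 to 55.3). It was 39 points matched in score, 44.6 points among cells of the previous series (17 of 35 on d7, 2 of 50 on d0) and 38.9 points among cells of the present series (33 of 66 on d7, 1 of 9 on d0). Without the cells off the mean profile it was 43.6 points. By this measure the difference lay between 38.9 and 44.6 points in all of these sets of cells. With 9 present-series cells on d0 its interval (-0.319 to 55.5) included 0. Other measures moved more. The domain mean differed by 44.3 points with all cells and by 25.3 with present-series cells alone, and the Fgf5 bin by 55.5 and 29.2 points.

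Between the pair of end states, EpiSC and d7, the domain was higher in EpiSCs and its surroundings lower. The EpiSC cells are those whose high shares entered the choice of the domain, so here too an excess over the background is partly built in. In EpiSCs against d7 cells 5 of 14 domain bins were higher by 0.3 or more (background 5.74%), and 5 left and 7 right flank bins were lower by as much (4.9%). The domain was replicated in 76.9% of EpiSCs and 49.5% of d7 cells, a difference of 27.4 points (4.49 to 44.8), and of 26.9 points with d7 cells matched in score, where the interval (-1.82 to 51.5) included 0. Without the cells off the mean profile it was 27.9 points. The last domain bin, 720 kb right, went the other way, at 50% in EpiSCs and 68.3% on d7. Just outside the right edge the share was 42.3% in EpiSCs and 83.2% on d7, so the EpiSC peak ended in a later stretch there and the d7 domain ran into an earlier one.

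The d6 cells stood below the days before and after them. In d6 cells against d5 cells 6 of 14 domain bins were lower by 0.3 or more (background 3.83%) and 0 were higher (background 3.77%), and no flank bin was lower or higher by as much. The Fgf5 bin was replicated in 8 of 21 d6 cells and 18 of 20 d5 cells, a difference of -51.9 points (-73.7 to -19.9), and 0.410% of all bins differed downward by as much. With scores of 45 to 65% only, 4 of 14 d6 cells and 13 of 14 d5 cells had the bin, a difference of -64.3 points. In d7 cells against d6 cells 5 domain bins, 2 left and 9 right flank bins were higher by 0.3 or more (background 1.55%), and 0 of any were lower (background 0.65%). The Fgf5 bin differed by 31.2 points (5.72 to 53), and 1.28% of all bins differed upward by as much. Without the cells off the mean profile the difference was 31.3 points, and the comparison of d6 with d5 held no such cells.

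Each cell was corrected for mappability with 1 of 14 merged G1 controls. No window cells of different groups shared a control except d6 and d7, so for every other pair control and group cannot be told apart. Among the 22 d7 cells that shared the control of the d6 cells, 12 had the Fgf5 bin replicated (54.5%), 16.5 points above the 8 of 21 d6 cells (-15.9 to 45.5). Among the 63 d7 cells of the most used control 46 had it (73%). The part of the control in the d6 level was not tested. Of cells with scores of 40 to 50%, 5 of 6 on d5, 2 of 8 on d6 and 12 of 25 on d7 had the bin. With scores of 50 to 60% it was replicated in 7 of 7, 0 of 6 and 27 of 38 cells of these days, and with scores of 60 to 70% in 6 of 7, 6 of 7 and 31 of 38. The d6 share was thus the lowest of the 3 days in the lower and middle bands, and equal to that of d5 in the upper one.

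Cells outside the window, which the choice of the domain did not use, gave the same measure earlier and later in S phase. With scores of 20 to 40%, the Fgf5 bin was replicated in 7 of 11 EpiSCs (63.6%, 30.8 to 89.1%) and in 0 of 42 cells on d0. The d0 count allows a share of up to 7.14% as 3 cells of the total, and its exact interval was 0 to 8.41%. In the same range it was replicated in 7 of 21 cells on d2, 2 of 7 on d3, 5 of 8 on d4, 6 of 12 on d5, 1 of 10 on d6 and 4 of 23 on d7. In this range EpiSCs and d4 had the highest shares and d0 and d6 the lowest. With scores of 5 to 20% the bin was already replicated in 1 of 8 EpiSCs, 3 of 18 cells on d2, 2 of 6 on d4 and 1 of 10 on d7, and in 0 of 6 on d0, 0 of 5 on d3, 0 of 3 on d5 and 0 of 9 on d6.

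Late in S phase the naive cells had the lowest share replicated of the 8 groups. With scores of 70 to 80%, the Fgf5 bin was replicated in 9 of 9 EpiSCs, 11 of 35 cells on d0 (31.4%, 16.9 to 49.3%), 15 of 15 on d2, 5 of 5 on d3, 1 of 1 on d4, 5 of 6 on d5, 3 of 4 on d6 and 23 of 25 on d7. With scores of 80 to 95% it was replicated in 9 of 9 EpiSCs and 10 of 15 cells on d0 (66.7%, 38.4 to 88.2%), in 15 of 16 on d2, and in every cell on d3 (8), d4 (12), d5 (9), d6 (8) and d7 (30). The domain as a whole was replicated in 9 of 9 EpiSCs and 8 of 35 d0 cells with scores of 70 to 80%, and in 3 of 11 EpiSCs and 0 of 42 d0 cells with scores of 20 to 40%.

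**Figure D3:**
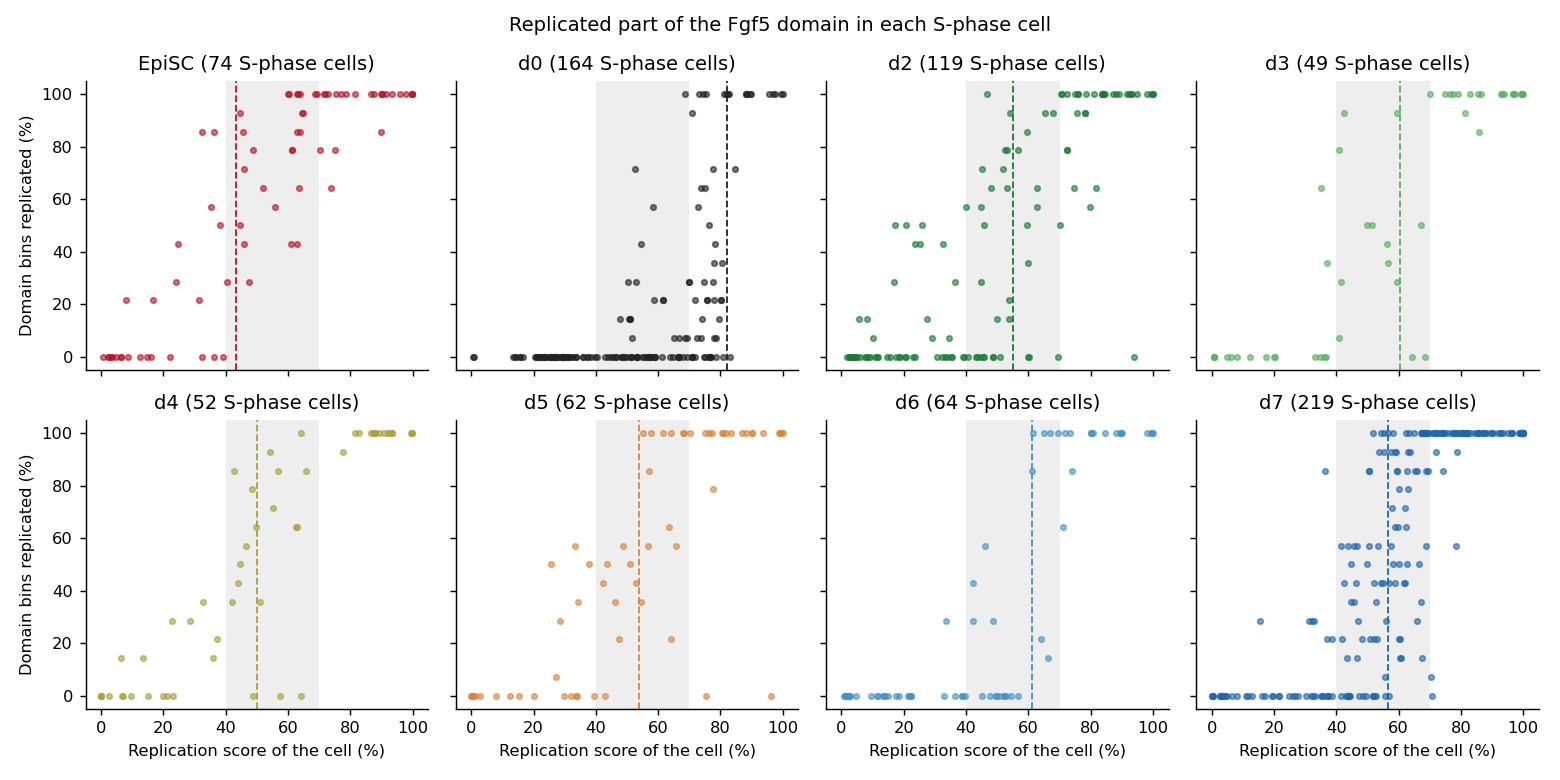
Percentage of the called domain bins replicated in each S-phase cell (1 point per cell with a domain call) against the cell's replication score, 1 panel per group; the grey area is the score range of 40 to 70% and the dashed line the domain midpoint. Cells change over near 82% on d0 and between 43.5% (EpiSC) and 61% (d6) in the other groups, with many cells part-replicated.

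The score at which 50% of cells had a feature replicated, from a logistic curve over S-phase cells with scores of 5 to 95%, puts these bands on 1 scale. A lower midpoint is earlier, and no error is given because each group is 1 sample. The curve takes in the window cells too. The EpiSC and d0 midpoints are thus not independent of the contrast that chose the domain. The domain midpoint was 43.5% in EpiSCs (63 cells), 82% on d0, 55.1% on d2, 60.4% on d3 (38 cells), 49.9% on d4 (45 cells), 54% on d5 (50 cells), 61% on d6 (52 cells) and 56.6% on d7, with more cells on d0, d2 and d7 than in any other group. The Fgf5 bin's midpoint was 26.5% in EpiSCs, 81% on d0, 41.2% on d2, 42.8% on d3, 21% on d4, 31.3% on d5, 58.7% on d6 and 47.1% on d7. The bin was thus late in S phase on d0, early in EpiSCs, d4 and d5, and near the middle on d2, d3, d6 and d7. It was the earliest bin of the domain in 5 of 8 groups (EpiSC, d2, d4, d5 and d7).

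In those 5 groups the midpoints at both ends of the domain were later than at the Fgf5 bin. In EpiSCs the midpoint was 26.5% at the Fgf5 bin, 43.4% at 320 kb right and 59.1% at 720 kb right, and 58% at 320 kb left. On d7 it was 47.1% at the Fgf5 bin and 62.2% at 320 kb left, but on the right it reached 59.7% at 400 kb and turned back to 48.7% at 720 kb and 35.3% at 960 kb. The latest domain bin was the last one, 720 kb right, in EpiSCs and on d2, d3 and d4, and the first one, 320 kb left, on d7. On d0 the slope had the other sense: the earliest bin was the last, at 73.3%, and the latest, 480 kb right, stood at 85.8%. The span of midpoints over the domain was 12.5 points on d0, 6.93 on d6, 15.0 on d7 and 26.5 to 47.7 points in the other groups.

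**Figure D4:**
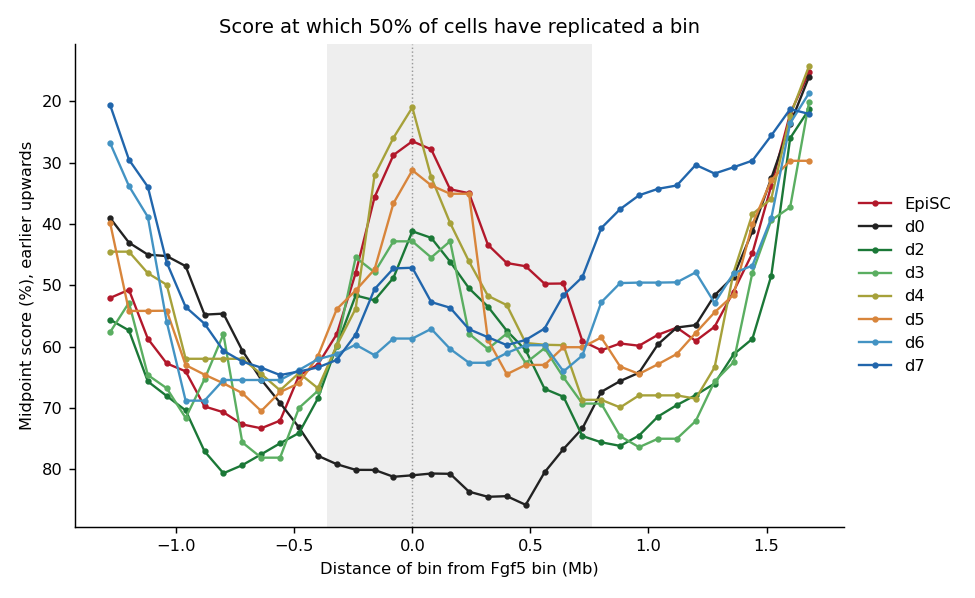
Replication score at which 50% of S-phase cells had a bin replicated (vertical axis in %, reversed so that earlier bins are higher), against distance from the Fgf5 bin in Mb, 1 line per group; the grey area is the domain. The d0 line is a trough at 73.3 to 85.8% across the domain, those of EpiSC, d2, d4, d5 and d7 have their earliest domain bin at Fgf5, and the d7 line is at 40.7% just outside the right edge.

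Within single cells, replicated bins next to each other form runs, and most runs bounded on both sides held the Fgf5 bin. The runs counted touched the domain and had an unreplicated bin on both sides within the 38 bins of domain and flanks. Of these, 120 runs held the Fgf5 bin (81.6%) and 27 did not. Runs that reached an end of the 38 bins were left out, with or without the Fgf5 bin. On d7, 15 cells had another domain bin replicated but not the Fgf5 bin, and on d0 12 cells did. The runs without the Fgf5 bin counted here were 2 on d7 and 8 on d0, so the shares of runs depend on this limit. Lengths of all the runs counted ranged from 80 to 1520 kb with a median of 560 kb. By group the runs that held the Fgf5 bin were 20 of 21 in EpiSCs, 7 of 15 on d0, 21 of 23 on d2, 8 of 13 on d3, 14 of 17 on d4, 13 of 16 on d5, 4 of 7 on d6 and 33 of 35 on d7. Long runs cover much of the domain wherever they lie, so short ones were also counted alone: of 58 runs of at most 400 kb, 40 (69%) held the Fgf5 bin. On d7 17 of 19 short runs did, and over the other groups 23 of 39 (59%), with 3 of 4 in EpiSCs, 5 of 9 on d0, 3 of 5 on d2, 3 of 8 on d3, 3 of 5 on d4, 4 of 6 on d5 and 2 of 2 on d6. Of the 58 short runs, 36 covered the bin 80 kb left, 27 the bin 80 kb right, 23 the bin 160 kb left and 21 the bin 160 kb right. The first domain bin was covered by 3 of them and the last by 3. The runs come from the same calls as the shares and are not independent of them.

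Over these bounded runs of all groups but d0, the share of runs covering a bin was highest at the Fgf5 bin and lower on both sides. It was 85.6% at the Fgf5 bin, 84.1% at the bin 80 kb left, 77.3% at the bin 80 kb right, 34.8% at the first domain bin and 12.1% at the last. Of the 15 bounded runs on d0, 7 covered the Fgf5 bin, 5 the bin 80 kb left and 6 the bin 80 kb right. The first domain bin was covered by 2 and the last by 4. Over all d0 window cells with a call the last bin was ahead, replicated in 10 of 58 cells against 8 of 58 at the Fgf5 bin. The d0 runs thus do not place a peak at the Fgf5 bin. Median run length was 800 kb in EpiSCs, 400 kb on d0, 720 kb on d2, 320 kb on d3, 640 kb on d4, 480 kb on d5, 560 kb on d6 and 400 kb on d7.

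**Figure D5:**
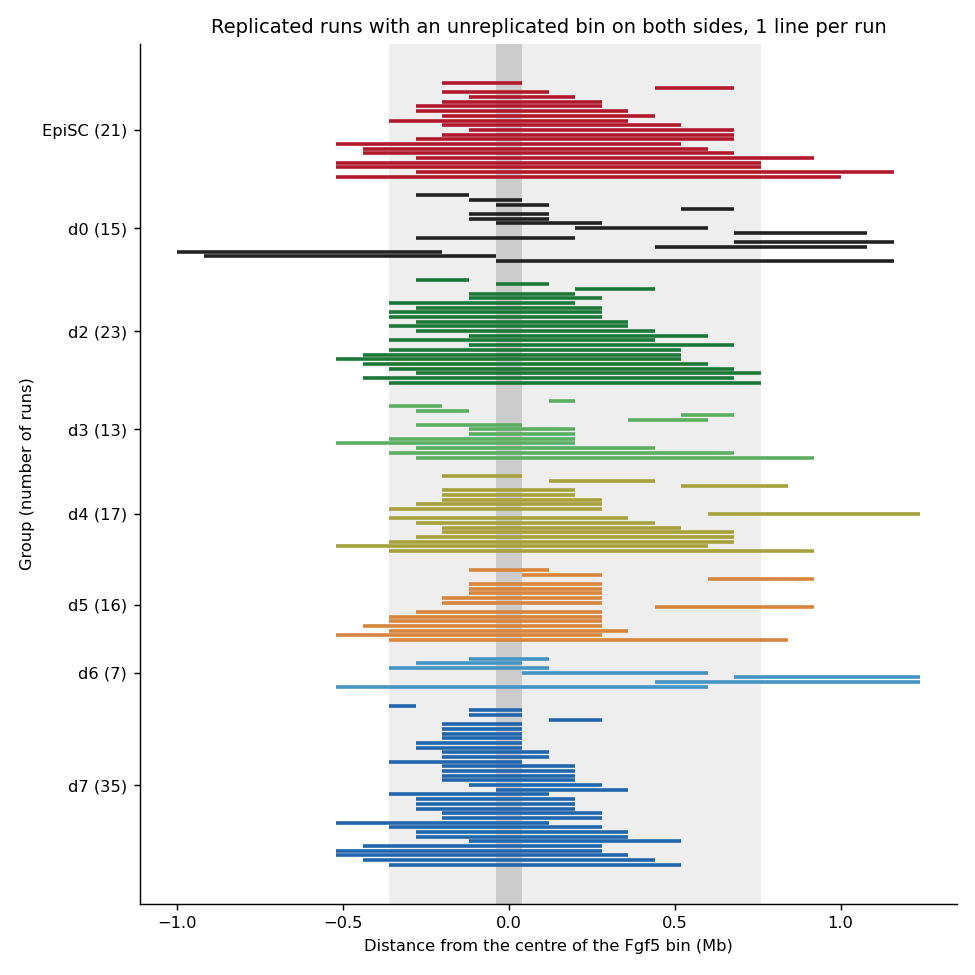
Each line is 1 replicated run in 1 window cell, with an unreplicated bin on both sides, drawn against distance from the centre of the Fgf5 bin in Mb; groups run down the page, with the number of runs in brackets, and runs are sorted by length. Light grey marks the domain and dark grey the Fgf5 bin, which 20 of 21 EpiSC runs and 33 of 35 d7 runs cross, against 7 of 15 on d0. Runs that reach an end of the domain and flanks are not drawn.

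Not every cell with the Fgf5 bin replicated had such an isolated run. Among the 291 window cells called in all 38 bins, the run that held the Fgf5 bin was bounded on both sides in 120 (69.4% of those with the bin replicated), and in 6 it ran out of the region on the left, in 26 on the right and in 21 on both. On d2, 21 of 21 such runs were bounded. On d7, 33 were bounded, 5 were open on the left, 17 on the right and 15 on both, so that most unbounded runs on d7 reached the right end of the region.

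Order within cells was counted from the same calls as the shares and is not independent of them. The excess of 1 bin over the other equals the difference in the cells that had each replicated. Against the domain's ends it ran as follows. Where only 1 of the Fgf5 bin and the first domain bin was replicated in a cell, it was the Fgf5 bin in 14 of 14 EpiSCs, 7 of 10 cells on d0, 9 of 9 on d2, 4 of 4 on d3, 9 of 9 on d4, 7 of 7 on d5, 2 of 3 on d6 and 37 of 39 on d7. Against the last domain bin it was the Fgf5 bin in 13 of 14 EpiSCs, 6 of 14 cells on d0, 19 of 19 on d2, 8 of 8 on d3, 12 of 12 on d4, 10 of 10 on d5, 4 of 6 on d6 and 15 of 29 on d7. On d0 the right end was ahead in more cells than Fgf5, and on d7 in nearly as many. In 6 of 8 groups, all but d0 and d6, most window cells were part-replicated: none, some and all of the domain bins were replicated in 0, 19 and 7 EpiSCs, 39, 19 and 1 cells on d0, 12, 22 and 1 on d2, 2, 11 and 0 on d3, 3, 14 and 1 on d4, 1, 13 and 6 on d5, 10, 7 and 4 on d6 and 16, 66 and 19 on d7. The number of domain bins replicated per cell had a lowest, median and highest value of 4, 11.5 and 14 in EpiSCs, of 0, 0 and 14 on d0 and of 0, 7 and 14 on d7.

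The origin of the cells touched the d0 level most. On d0 the Fgf5 bin was replicated in 3 of 8 called cells of the present series (37.5%, 8.52 to 75.5%) and 5 of 50 of the previous one (10%, 3.33 to 21.8%), and the domain in 1 of 9 and 2 of 50. Among the 9 present-series cells on d0 were the 3 that lay off the mean profile, none of which had the Fgf5 bin called replicated. In 1 of these 3 the bin had no call. That cell had 2 domain bins called, with 0 replicated, and counts among the 9 for the domain. Of the 6 on the profile, 3 had it replicated. On d7 the bin was replicated in 44 of 66 cells of the present series (66.7%) and 26 of 35 of the previous one (74.3%). Its share on d2 was 7 of 12 and 14 of 23 under the pair of G1 controls used there. The 9 d0 cells of the present series are too few to place the d0 level there more closely. Most of them came from a sort gate late in S phase, and most of the 50 previous-series ones from a mid-S gate. Origin, sort gate and culture cannot be told apart.

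The 5 regions whose shares over the 8 groups lay closest to the domain mean, by root mean square difference over 29432 bins more than 5 Mb away, were on other parts of the genome. They were chr4:103760001-103840000 (8.53 points), chr8:8080001-8160000 (8.54), chr5:45200001-45280000 (9.75), chr13:28320001-28400000 (11.1) and chr2:124560001-124640000 (11.3). The chromosome 8 bin, for example, was replicated in 92.3% of window EpiSCs, 10.2% on d0, 34.3% on d2, 53.8% on d3, 55.6% on d4, 50% on d5, 28.6% on d6 and 55.4% on d7. It shares the low value on d6, as does the chromosome 5 bin (55% on d5, 33.3% on d6, 68.3% on d7). These regions were picked for likeness, so their resemblance is a description, and no gene was placed on them.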

How the data were processed

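Single cells were sorted by DNA content, amplified with a SeqPlex kit and sequenced, per the labels' protocols; the submitters' processing notes name cutadapt, BWA 0.7.10-r789, Picard and the mm9 build, for which order and settings are not given in the sources used here. Mappability was corrected by the authors against 1 of 14 merged G1 controls per cell, per the file headers, and the deposited call of an 80 kb bin is 1 (replicated), -1 (not yet) or 0 (no data). Smoothing and thresholds of the calls were thus set by the authors and limit the sharpness of any edge. The deposited replication score is a fraction; recomputed from the calls as a percent, the largest difference was 5.00e-08 points. The number of called bins served in place of read depth.

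Groups came from the titles. Bins called in at least 50% of a group's window cells entered shares, and comparisons used a size rule of 0.3 in share. Regions named for likeness were the 5 bins nearest to the domain mean, with bins within 400 kb counted once. Midpoints came from a logistic curve with 1% of calls taken as wrong. Score matching took, for each cell, the unused cell of the other group closest in score. The size rule over bins and the midpoint fit were also tested on simulated data, and the other steps were not. The domain, the rules and the alternatives were chosen with earlier results of these data known. Python 3.11.15, numpy 2.4.6, pandas 2.3.3, scipy 1.17.1 and matplotlib 3.10.9 were used. Chromosome X was not used here. The 28 window cells marked in the authors' filter columns were kept in the main values and left out in an alternative.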

Additional observations from a re-analysis of the deposited data

How the results depend on the processing

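The shares, differences, midpoints and counts of bins past the size rule were recomputed under the other settings that applied to each. All but 14 of the values moved by less than the counting interval (midpoints by less than 5 points, counts by less than 1.5 times), and no difference changed sign. The stricter rule for a replicated cell, more than 80% of domain bins, gave 50% in EpiSCs, 14.3% on d2, 27.8% on d4 and 34.7% on d7. Taking the Fgf5 bin with 2 bins on each side gave 96.2% in EpiSCs, 69.2% on d3, 83.3% on d4, 90% on d5 and 68.3% on d7. Both settings change how much of the peak must be replicated. Present-series cells alone gave 37.5% for the Fgf5 bin on d0 and a difference of 22.5 points between d2 and d0 in that bin. The counts of bins against present-series d0 cells were not among the values tallied above. By that count 2 domain bins were higher on d2, against 9 with all cells, and 4 on d7, against 13 with all cells. The cause of these differences was not tested. The number of domain bins higher on d7 than on d0 was 8 with a size rule of 0.4, and that of bins higher in EpiSCs than on d7 was 10 with 0.2 and 0 with 0.4. Alternatives for d2 against d0, d6 against d5, d7 against d6 and the flanks, the counts against present-series d0 cells, and those that left out cells off the mean profile or marked by the authors, were chosen after seeing the data. No paired analysis was possible because every group is 1 sample and replicate numbers only name cells. Small groups limit d3 to d6 most, with 13 to 21 window cells, and nothing separates day from culture.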

Other observations

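The 7 G1 cells whose labels name different days had 0 of 98 domain calls replicated. Of the 72 G1 cells in a group, 2 had any domain bin replicated and 1 had the Fgf5 bin. Among window cells, 36 had another domain bin replicated and the Fgf5 bin not. In the deposited cell table the column headed for an IQR filter marks all S-phase cells with scores of 5% or less or 95% or more and no others, while the column headed for a score filter marks 67 cells, 19 of them in that range.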
